A study of Homo sapiens and Mus musculus with 20 samples.

Results

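N-C1 is a truncated form of Satb1 that keeps the N-terminal oligomerization domain and the first CUT domain (CUT1) and lacks the second CUT domain (CUT2) and the homeodomain (HD). Its ChIP-seq peak list was compared with that of full-length Satb1 (FL), both from MCF10A, a human mammary epithelial cell line without native Satb1. The comparison covered every peak of both lists, 62856 N-C1 peaks and 22877 FL peaks, out of 198095 peaks in the 5 Satb1 ChIP-seq lists of MCF10A used here. The deposited N-C1 list is longer than the number of sites given in the study's text for this construct, for a reason that is not stated, and every N-C1-only count here rests on the deposited list. A peak was called shared when at least 1 bp of it lay in a peak of the other list, and otherwise N-C1-only or FL-only, in hg19 coordinates.

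Both proteins were expressed as C-terminal eGFP fusions from a cumate-inducible lentiviral construct, in stable lines sorted through the same fluorescence gate, and both were precipitated with the same GFP antibody (Ab290). 3 further MCF10A lists from the same study were read beside them: ∆HD, which lacks only the homeodomain, and full-length Satb1 after 2 h of either camptothecin (CP), a topoisomerase I inhibitor, or ICRF-193, a topoisomerase II inhibitor. Accessible chromatin was taken from ATAC-seq of MCF10A cells expressing Satb1 and of native MCF10A cells. Each condition had 1 peak list, so no difference could be set against the spread between replicates and no test was made. Shares are given with exact 95% Clopper-Pearson bounds. These hold the error of counting alone, and neighbouring peaks are not independent.

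Satb1 is a chromatin protein of the SATB family, best known from thymocytes, where it is needed for T cell development, and also studied in breast epithelium. It binds A/T-rich DNA as an oligomer held together by its N-terminal domain. CUT domains and homeodomains are both small helical DNA-binding folds, and in Satb1 they stand side by side in the C-terminal part. The contrast of N-C1 with FL asks which sites are kept, lost or gained when CUT2 and the homeodomain are removed.

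Fold enrichment, the unit of peak height used throughout, is the authors' ratio of the ChIP signal at the summit to the local background, and each value belongs to its own list. The smallest −log10 q was 1.32 in the N-C1 list and 1.45 in the FL list. At the false discovery rate of 0.01 that the study's methods name, a −log10 q of 2, 62324 N-C1 and 22867 FL peaks would remain. The peak files hold no read totals, and the methods give only a range over all ChIP libraries, so the depth of each list is unknown. The number of peaks can move with depth, and a site that a list lacks may still have been bound. As a check of the cell line, native ATAC-seq peaks lay at 18 of 18 basal mammary gene promoters, at 10 of 15 luminal mammary genes and at 1 of 10 genes of the casein cluster, against 15213 of 19794 protein-coding genes with an annotated start.

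The sites that differ most between the lists are shown first as sequence. Each line gives the plus strand of GRCh37 (hg19 coordinates) at the summit base and 60 bases on either side, and capitals mark the Satb1 consensus heptamer, which is a C or T, then TA, then A or T, then TA, then A or G (CTAATAA or CTAATAG or CTATTAA or CTATTAG or TTAATAA or TTAATAG or TTATTAA or TTATTAG). This set of 8 words is its own reverse complement, so both strands were read at once, and overlapping matches were each counted. A heptamer lay in 25.8% of all 7146352 windows of 400 bp without gaps in the genome.

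The first pair are shared sites at the top of both lists, in GPC6 (chr13:94070837-94070957) and far from any gene (chr2:13602731-13602851). They hold 8 and 6 heptamers in the bases printed.
shared site GPC6: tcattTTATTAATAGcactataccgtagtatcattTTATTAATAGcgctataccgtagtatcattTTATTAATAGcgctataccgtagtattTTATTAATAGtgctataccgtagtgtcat
shared site chr2: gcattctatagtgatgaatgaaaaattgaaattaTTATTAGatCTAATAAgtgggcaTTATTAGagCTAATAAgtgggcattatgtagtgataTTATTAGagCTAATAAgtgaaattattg
The next are 2 of the 5 N-C1-only sites of largest fold, in SLCO4C1 (chr5:101615051-101615171) and 36.5 kb from NAP1L3 (chrX:92889393-92889513). They hold 3 heptamers and 1.
N-C1-only site SLCO4C1: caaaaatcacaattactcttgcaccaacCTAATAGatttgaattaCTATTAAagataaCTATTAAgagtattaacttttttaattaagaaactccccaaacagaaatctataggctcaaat
N-C1-only site NAP1L3: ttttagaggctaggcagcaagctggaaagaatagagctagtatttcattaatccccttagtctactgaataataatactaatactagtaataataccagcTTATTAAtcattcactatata
The next are 3 of the 5 FL-only sites of largest fold, 597 kb from SLITRK5 (chr13:87726680-87726800), in APLF (chr2:68744855-68744975) and 5.37 kb from TRO (chrX:54941463-54941583). None of the printed bases holds a heptamer, and the letters taatata recur in all 3.
FL-only site SLITRK5: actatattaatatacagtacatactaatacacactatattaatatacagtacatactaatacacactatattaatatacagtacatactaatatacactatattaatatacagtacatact
FL-only site APLF: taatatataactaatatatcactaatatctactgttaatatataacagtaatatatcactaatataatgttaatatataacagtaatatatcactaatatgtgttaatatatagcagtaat
FL-only site TRO: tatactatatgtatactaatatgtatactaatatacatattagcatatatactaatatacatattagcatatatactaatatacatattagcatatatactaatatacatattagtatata
The last 3 are shared sites that changed rank, 2 that were high by FL fold and low by N-C1 fold among the sites of both lists (chr6:156666298-156666418, 431 kb from ARID1B, and chr5:20869350-20869470, 293 kb from CDH18) and 1 that rose (chr4:68354330-68354450, in CENPC). Over 200 bp the fallers are 87.5 and 88.5% A/T and the riser is 72%.
fell, ARID1B: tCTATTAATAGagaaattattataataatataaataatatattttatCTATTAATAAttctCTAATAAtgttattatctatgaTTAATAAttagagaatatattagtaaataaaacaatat
fell, CDH18: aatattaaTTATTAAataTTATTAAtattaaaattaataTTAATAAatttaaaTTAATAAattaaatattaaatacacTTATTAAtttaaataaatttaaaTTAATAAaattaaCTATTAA
rose, CENPC: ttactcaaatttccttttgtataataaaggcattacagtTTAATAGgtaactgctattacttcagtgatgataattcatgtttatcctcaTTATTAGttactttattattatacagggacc

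Nearly every FL site was also an N-C1 site, whereas most N-C1 sites were not FL sites. Of the FL peaks, 21775 overlapped an N-C1 peak, which is 95.2% (95% interval 94.9 to 95.5%), and 1102 did not. Of the N-C1 peaks, 21720 overlapped an FL peak, which is 34.6% (34.2 to 34.9%), and 41136 did not. The 2 directions differ in number because the N-C1 list is longer, and when it was cut to its 22877 peaks of largest fold, 77.1% of them overlapped an FL peak. Almost all shared peaks paired off uniquely: 21599 sites joined exactly 1 FL peak to 1 N-C1 peak, with their summits a median of 20 bp apart (quartiles 9 and 37 bp).

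Shared N-C1 peaks were the tall ones. They had a median fold of 10.6 (quartiles 7.78 and 15.9) and a maximum of 84.1, against a median of 5.18 (4.48 and 6.22) and a maximum of 16.6 for N-C1-only peaks. Among the shared N-C1 peaks 55.1% reached a fold of 10, and among the N-C1-only peaks 1.27% did. By decile of N-C1 fold, the share found in the FL list was 3.39% (2.95 to 3.87%) in the lowest, 12.6% in decile 5, 63.0% in decile 8 and 99.9% in the highest, where 4 of 6286 peaks were N-C1-only. FL peaks showed a much flatter course, from 90.7% (89.5 to 91.9%) in their lowest decile to 98.5% (97.9 to 99%) in their highest.

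**Figure D1:**
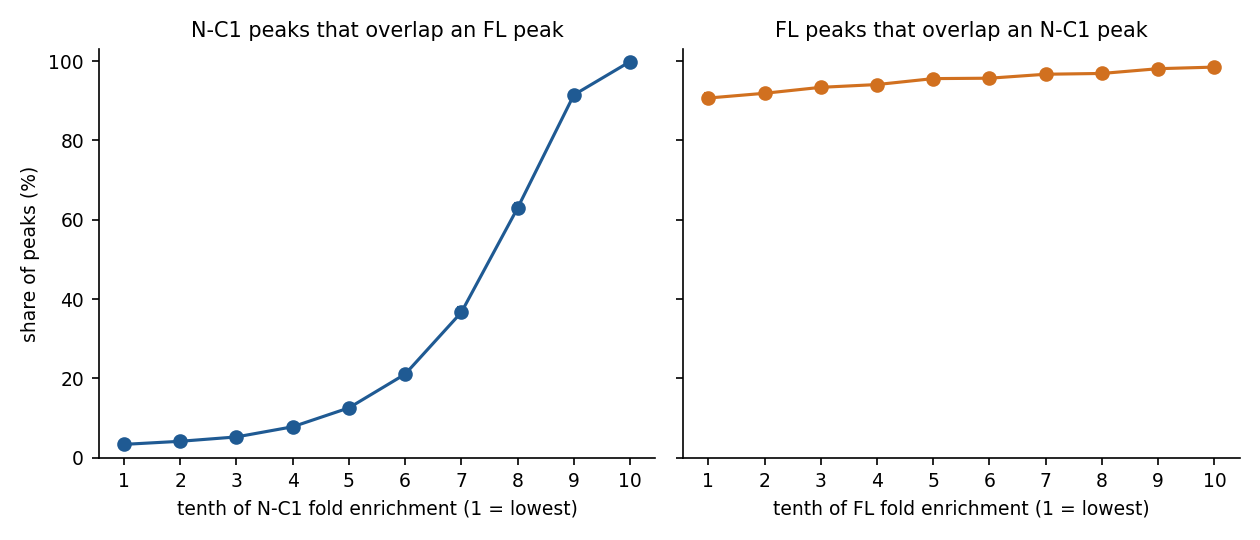
Share of peaks (%) that overlap the other list, by decile of fold enrichment within the list (1 is the lowest), for N-C1 peaks on the left and FL peaks on the right. Points are shares and bars their 95% Clopper-Pearson intervals; the N-C1 curve runs from 3.39% to 99.9% and the FL curve from 90.7% to 98.5%.

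Peak width followed the same order. The median width was 299 bp (quartiles 264 and 344) for N-C1-only peaks and 426 bp (372 and 513) for shared N-C1 peaks, and 271 bp (237 and 332) for FL-only peaks and 316 bp (262 and 401) for shared FL peaks. At the 1-to-1 sites the N-C1 peak was the wider of the pair in 91.0% of cases. Width rose with fold, and within the same decile of N-C1 fold the medians came closer: 304 bp for N-C1-only and 335 bp for shared peaks in decile 5, and 368 against 391 bp in decile 8.

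FL-only peaks were few and were set apart by their base composition. A/T content, counted over 200 bp at the middle of the peak, averaged 79.8% (SD 6.51 across peaks) in FL-only peaks, 72% (SD 5.15) in shared FL peaks, 71.8% (SD 4.98) in shared N-C1 peaks and 70.4% (SD 4.15) in N-C1-only peaks. The sequence 1000 to 2000 bp away on either side was alike in the 4 classes, between 62.4 and 63.0%, and all 200 bp windows of the genome averaged 59.1%. An A/T content of 80% or more was found in 52.7% of FL-only peaks (49.7 to 55.7%), in 4.91% of shared FL peaks (4.63 to 5.21%), in 0.250% of N-C1-only peaks (0.204 to 0.304%) and in 0.275% of genome windows. With a reciprocal overlap of 50% in place of 1 bp, 2066 FL peaks were unshared and 31.3% of them (29.3 to 33.4%) had 80% A/T or more. Over 400 bp in place of 200 bp the first 2 shares were 20.5% and 0.799%, and over 100 bp 72.5% and 16.7%. An unbroken run of A and T of at least 30 bp lay in 23% of FL-only peaks, 2.32% of shared FL peaks and 0.236% of N-C1-only peaks. These A/T classes and runs were chosen after the data had been seen.

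Seen from the FL list, the share of peaks found again in the N-C1 list was lower at each step of A/T content above 75%. The share was 98.3% below 65% A/T, 99.1% from 65 to 70%, 98.7% from 70 to 75% and 94.2% from 75 to 80%. It was then 71.0% (68.4 to 73.5%) of 1276 peaks from 80 to 85%, 44.6% (38.8 to 50.4%) of 294 peaks from 85 to 90% and 40.7% (29.9 to 52.2%) of 81 peaks at 90% or more. The median FL fold of all FL peaks, shared or not, rose across the same classes from 6.51 to 12.8. FL-only peaks had a median fold of 6.09 (quartiles 5.27 and 7.74), against 7.33 (5.82 and 10.9) for shared FL peaks. At 80% A/T or more, 118 of 581 FL-only peaks and 748 of 1070 shared FL peaks reached a fold of 10. Among FL peaks of fold 10 or more, 99.9% were shared below 75% A/T, 86.4% at 80% or more and 66.7% (60.1 to 72.8%) of 228 peaks at 85% or more.

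The same FL peaks were looked up in the other lists. Of the FL peaks at 90% A/T or more, 4.94% overlapped a ∆HD peak, whereas all 81 overlapped a peak of full-length Satb1 after CP and all 81 one after ICRF-193. Below 65% A/T the order was turned round, with 97.3% found in the ∆HD list, 71.2% after ICRF-193 and 53.7% after CP. FL-only peaks as a class overlapped the ∆HD list in 14.8% of cases (12.7 to 17%), the CP list in 80.9% (78.4 to 83.1%) and the ICRF-193 list in 93.8% (92.2 to 95.2%), while shared FL peaks did so in 92.3%, 81.7% and 92.9%. All 133 FL-only peaks of fold 10 or more, 12.1% of the class, were in both full-length lists and 2 of them in the ∆HD list. Presence in the ICRF-193 list was the rule for FL peaks of that fold, shared or not. It was 100% of 3692 such peaks below 75% A/T, of 1896 from 75 to below 80% and of 866 at 80% or more. The CP list was not read in this way. Input DNA served as control for peak calling, and the labels give 1 input for MCF10A, so these lists may share it.

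**Figure D2:**
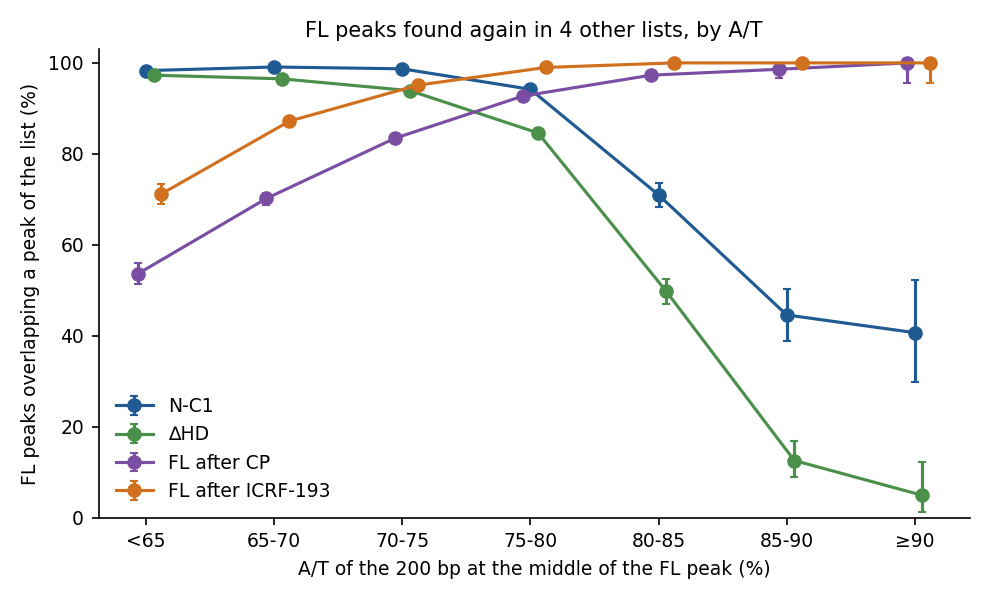
Share of FL peaks (%) that overlap a peak of the N-C1, ∆HD, FL after CP and FL after ICRF-193 lists, by A/T content of the 200 bp at the FL peak's middle (%). Points are shares with 95% Clopper-Pearson intervals; between below 65% and 90% or more A/T, N-C1 runs from 98.3% to 40.7% and ∆HD from 97.3% to 4.94%, while both full-length lists reach 100%.

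Heptamers were common in every class. At least 1 lay within 400 bp at the peak's middle in 96.7% of shared FL peaks (96.5 to 96.9%), 96.5% of shared N-C1 peaks, 94.0% of FL-only peaks (92.4 to 95.3%) and 93.5% of N-C1-only peaks (93.2 to 93.7%). Their number differed more: the mean per peak was 2.75 in shared FL peaks (SD 1.55), 2.79 in FL-only peaks (SD 1.92) and 1.97 in N-C1-only peaks (SD 1.04), and 0.322 in genome windows. The share of N-C1 peaks also in the FL list rose with the number of heptamers, from 21.9% (21.3 to 22.6%) at 1 match to 28.7% at 2, 41.5% at 3, 62.8% at 4 to 6 and 98.6% of 363 peaks at 7 or more. Peaks with more heptamers were also taller, but inside a single decile of N-C1 fold shared peaks still held more of them, with means of 2.49 against 2.02 in decile 5 and 2.51 against 2.17 in decile 8. A/T content in those deciles was 72 against 70.3% and 71.4 against 70.6%.

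Height went up with heptamer number in shared peaks and little in N-C1-only peaks. Mean N-C1 fold in shared peaks was 13.8 at 0 matches (SE 0.403), 11.9 at 1 match (SE 0.145), 15.2 at 4 (SE 0.186) and 42.8 at 9 or more (SE 1.77). In N-C1-only peaks it was 5.38 at 1 match (SE 0.0131) and 5.66 at 4 (SE 0.0296). N-C1-only is by definition free of the tallest peaks, which bounds how far its curve could rise. Among FL-only peaks the mean FL fold was 6.52 at 1 match (SE 0.213), 7.59 at 4 (SE 0.284) and 9.58 at 0 matches (SE 0.951).

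A related word was searched for after the printed sequences had been seen. It is CTAATAT or TTAATAT on either strand, overlaps the heptamer in its first 6 letters, and lay in 17.3% of genome windows. The FL-only site near SLITRK5 (fold 51.4) held 29 such words and 0 heptamers in 400 bp, and that in APLF (fold 44.2) held 18 words and 5 heptamers. At least 1 lay in 76.0% of FL-only peaks (73.3 to 78.4%), 63.4% of shared FL peaks (62.8 to 64.0%) and 55.8% of N-C1-only peaks (55.3 to 56.3%). From 80 to 85% A/T it lay in 80.3% of FL-only and 82.6% of shared FL peaks, and at 85% or more in 91.5% (86.9 to 94.9%) and 80.5% (73.6 to 86.3%). Its mean number there was 2.85 against 3.11, and 5.32 against 6.01. The mean number of heptamers in the same classes was 2.74 in FL-only and 4.06 in shared FL peaks, and 3.78 against 6.47.

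Spacing between heptamers was compared next. Among peaks with exactly 2 matches, their starts lay 8 to 12 bp apart in 10.9% of shared FL peaks (10.2 to 11.7%), 8.96% of N-C1-only peaks (8.52 to 9.42%) and 5.46% of FL-only peaks (3.15 to 8.72%). In the neighbouring range of 13 to 17 bp the shares were 6.01%, 5.11% and 8.19%.

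Within the shared set many sites changed their standing between the lists. When the 21599 1-to-1 sites were cut into quartiles by fold in each list, 9054 of them, 41.9% (41.3 to 42.6%), were in another quartile in N-C1 than in FL, and 6.62% were at least 2 quartiles away. The top held best: 79.3% of the highest FL quartile was also in the highest N-C1 quartile. Of the 1000 highest sites of each list 705 were common to both, and of the 100 highest 34 were. In percentile of fold, 1928 sites fell by 25 points or more from FL to N-C1, which is 8.93% of them, and 1557 rose by as much, which is 7.21%.

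Sites that fell were A/T-rich and sites that rose were not. The mean A/T content was 76.9% (SD 5.72) in the former, 70.6% (SD 3.93) in the latter and 72% (SD 5.13) over all 1-to-1 sites. The 567 sites that fell by over 50 points averaged 80.3% A/T with a median unbroken run of 23 bp, their median fold was 11.3 in FL and 6.04 in N-C1, and 35.8% of them (31.9 to 39.9%) were in the ∆HD list. The 57 sites that rose by over 50 points had median folds of 5.27 in FL and 13.3 in N-C1, and all 57 were in the ∆HD list. Of all 1-to-1 sites 92.3% were in that list, and of those that moved by up to 10 points 96.1%. From below 65% to 90% A/T or more, the median FL percentile climbed from 39.8 to 91.6 while the N-C1 percentile went from 44.7 to 30.7. At 80 to 85% A/T, 49.6% of sites fell by 25 points or more and 1 of 897 rose by as much. With more heptamers the median percentile was higher in both lists, up to 99.2 in FL and 97.7 in N-C1 at 9 or more. The share of sites that fell by 25 points or more was also higher, 7.05% at 0 matches, 18.2% at 6, 31.7% of 63 sites at 8 and 17.1% at 9 or more. The share that rose was 10.1%, 1.58%, 0% and 0%. Mean A/T content was higher too, 70.2% at 0 matches, 74.8% at 6, 79.6% at 8 and 81.3% at 9 or more. Rank changes by heptamer number were not read at a fixed A/T content. Among FL peaks of 80% A/T or more, 45.7% at 0 matches were in the N-C1 list, 56.7% at 1 to 2 and 69.6% at 3 or more. A site in the top 25 points of FL percentile cannot rise by 25 points, and one in the lowest 25 cannot fall by as much. The median FL percentile was 83.5 at 80 to 85% A/T, 88.4 at 6 heptamers and 97.8 at 8. Most of those sites therefore could not rise so far.

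**Figure D3:**
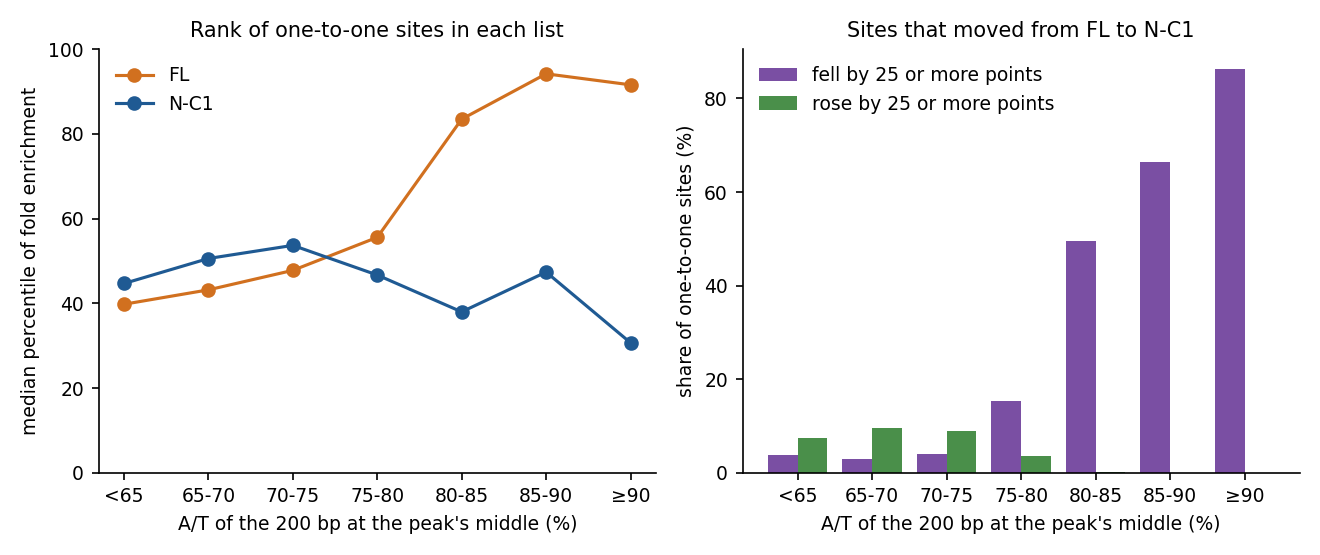
1-to-1 sites by A/T content of the 200 bp at the FL peak's middle (%): on the left the median percentile of fold enrichment in the FL and the N-C1 list, on the right the share of sites (%) whose percentile fell or rose by 25 points or more from FL to N-C1. At 90% A/T or more the medians are 91.6 in FL and 30.7 in N-C1, and 86.2% of 29 sites fell.

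The named sites make the change concrete. The shared site of highest N-C1 fold, in GPC6, which encodes a cell-surface glypican, had a fold of 84.1 in N-C1, 55.7 in FL, 77.0 in ∆HD, 68.3 after CP and 78.2 after ICRF-193, with 20 heptamers in 400 bp. The other pair at the top, on chrX:116225579-116231119 and chr2:13602316-13603222, had N-C1 folds of 84.1 and 83.8 and FL folds of 54.9 and 55.7. None of these 3 lay in accessible chromatin, and all 3 stood high in every list.

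The 5 sites that fell most had FL folds between 19.5 and 35.5 and N-C1 folds between 4.48 and 5.52. The first, 431 kb from ARID1B, had a fold of 35.5 in FL, 34.7 after CP and 43.4 after ICRF-193 but 4.83 in N-C1, and no ∆HD peak. None of the 5 had a ∆HD peak, all 5 held between 4 and 9 heptamers, and their A/T content ran from 82.5 to 88.5%. The 5 that rose most had FL folds between 4.45 and 5.41 and N-C1 folds between 12.8 and 17.3, with 1 to 3 heptamers and 66.0 to 74.5% A/T. In CENPC, which encodes a centromere protein, the fold was 4.45 in FL, 12.8 in N-C1 and 17.1 in ∆HD. In SLC25A13, a mitochondrial aspartate and glutamate carrier, it was 4.60 in FL, 13 in N-C1 and 7.13 in ∆HD.

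The 5 FL-only sites of largest fold, between 28.3 and 51.4, had no peak in N-C1 or in ∆HD and had one in both treated full-length lists. The highest, 597 kb from SLITRK5, had a fold of 51.4 in FL, 55.3 after CP and 64.5 after ICRF-193. The 5 N-C1-only sites of largest fold, between 14.2 and 16.6, all had a ∆HD peak, with folds between 7.58 and 12.4, and all had a peak of full-length Satb1 after ICRF-193. In SLCO4C1, an organic anion transporter, the fold was 16.6 in N-C1, 10.1 in ∆HD, 8.45 after CP and 10.7 after ICRF-193. At the site 36.5 kb from NAP1L3 it was 14.2 in N-C1, 7.58 in ∆HD, 5.96 after CP and 6.22 after ICRF-193. All 5 were therefore sites of full-length Satb1 in another list of the same study.

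Over all N-C1-only peaks, 29.4% (29.0 to 29.8%) overlapped a peak of full-length Satb1 after CP or ICRF-193 and 53.4% (53.0 to 53.9%) overlapped a ∆HD peak. In none of these 3 lists were 15966 peaks, or 38.8%. The peaks in the ∆HD list but in no full-length list were the least A/T-rich, 68.8% (SD 4.26) over 13077 peaks, and those in a treated full-length list but not in ∆HD the most, 73.1% (SD 3.39) over 3185 peaks. Peaks found in no other list had a median fold of 4.65 and still held a heptamer in 93.3% of cases.

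Few peaks of any class were accessible. Overlap with an ATAC-seq peak of Satb1-expressing cells, whose peaks cover 8.26% of the genome, was 5.16% for shared N-C1 peaks (4.87 to 5.46%), 3.92% for N-C1-only peaks (3.74 to 4.11%), 4.69% for shared FL peaks (4.41 to 4.98%) and 3.72% for FL-only peaks (2.68 to 5.01%). By summit alone the shares were 2.56% for shared N-C1, 2.42% for N-C1-only, 2.61% for shared FL and 2.63% for FL-only peaks. In native cells, whose ATAC-seq peaks cover 5.32% of the genome, the shares by overlap of the whole peak were 3.95%, 3.61%, 3.47% and 2.45%, in the same order. Within 5 kb of a protein-coding transcript start, 11.6% of shared N-C1 peaks (9.85 to 13.5%) and 7.70% of N-C1-only peaks (6.64 to 8.88%) were accessible. In the lowest decile of N-C1 fold the accessible share was 16.0% of 213 shared peaks (11.3 to 21.6%) and 6.19% of 6073 N-C1-only peaks (5.60 to 6.83%). The gap was smaller than this higher up, without closing steadily. The shares were 5.56 against 3.30% in decile 5, 4.29 against 3.02% in decile 7 and 3.96 against 3.74% in decile 8. In decile 9 they were 4.28% of 5753 shared and 2.63% of 532 N-C1-only peaks. The intervals overlap in deciles 7, 8 and 9. Accessible peaks of both kinds were less A/T-rich than inaccessible ones, 69.6 against 71.9% in shared and 68.3 against 70.5% in N-C1-only N-C1 peaks.

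Shared and unshared peaks lay in much the same parts of genes. The summit fell in a protein-coding gene for 41.8% of N-C1-only peaks (41.4 to 42.3%), 40.3% of shared N-C1 peaks (39.7 to 41.0%) and 36.3% of FL-only peaks (33.5 to 39.2%), almost always in an intron. Exons of protein-coding transcripts, outside promoters, took 1.48% of N-C1-only peaks, 1.11% of shared N-C1 peaks and 0.544% of FL-only peaks. Promoters, from 1000 bp before to 100 bp after a transcript start, took 0.530%, 0.571% and 0.454%. The median distance to the nearest start was 109828 bp for N-C1-only, 105235 bp for shared N-C1 and 139252 bp for FL-only peaks.

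Genes holding a summit of the longer N-C1 list were shorter at the median than genes holding an FL summit. Of 19515 protein-coding genes, 4014 (20.6%) held an FL summit in the body, 6299 (32.3%) held an N-C1 summit and 2349 (12.0%) held an N-C1 summit and no FL summit. When the N-C1 list was cut to the FL number by fold, that last count was 427. The median gene length was 119 kb for genes with an FL summit, 90.6 kb for those with an N-C1 summit and 26.6 kb for all. It was 59.1 kb for genes with an N-C1 and no FL summit, and 56.2 kb for the 64 with an FL and no N-C1 summit. Among genes under 50 kb, 6.07% held an FL and 13.5% an N-C1 summit, and among the 317 genes of 500 kb or more, 97.5% and 99.7% did. The longest class was also the densest, with 9.34 shared and 19.5 N-C1-only sites per Mb of gene body, against 3.75 and 7.42 in the shortest. The make-up hardly changed with length: N-C1-only sites were 66.4% of the N-C1 sites in genes under 50 kb and 67.6% in those of 500 kb or more.

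**Figure D4:**
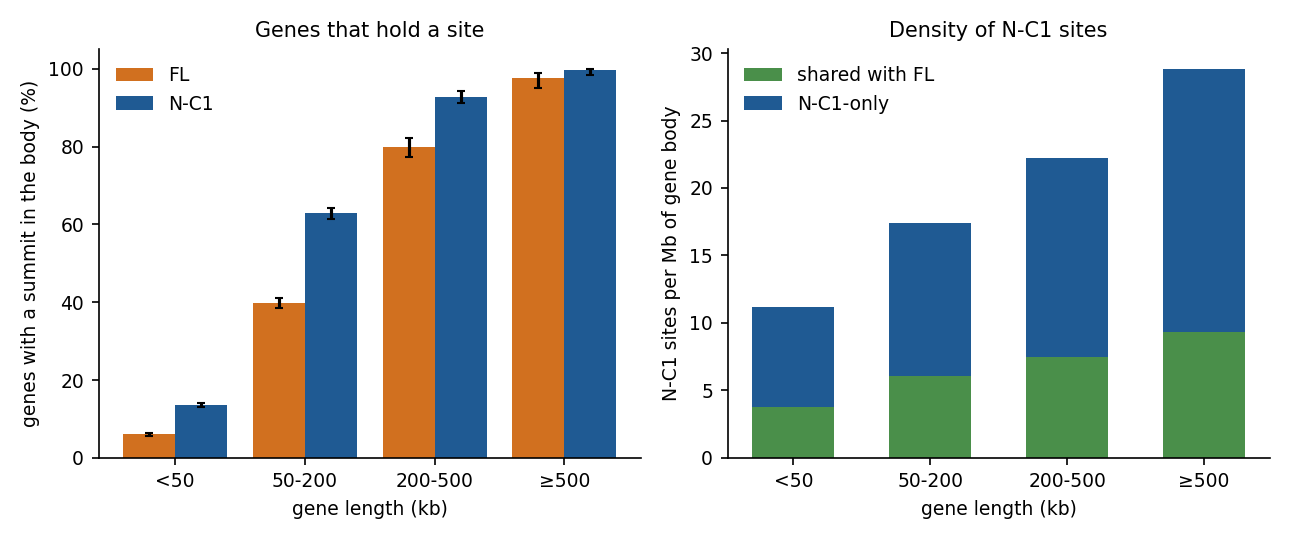
Protein-coding genes by length (kb): on the left the share of genes (%) with an FL or an N-C1 summit in the body, with 95% Clopper-Pearson intervals, on the right the N-C1 sites per Mb of gene body, split into those shared with FL and N-C1-only. In genes of 500 kb or more the stacked bar holds 9.34 shared and 19.5 N-C1-only sites per Mb.

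The genes named here for their number of N-C1 sites were all longer than 1 Mb. CSMD3, a large membrane protein gene of 1214 kb (chr8:113235157-114449168), held 160 N-C1 sites, 112 of them N-C1-only, and 50 FL sites. PTPRD, a receptor tyrosine phosphatase, held 114 and 27, LRP1B, of the LDL receptor family, 106 and 35, and PCDH15, a protocadherin of hair-cell tip links, 104 and 34. EYS, a photoreceptor matrix protein, held 101 N-C1 and 40 FL sites, ROBO2, a receptor in axon guidance, 78 and 33, ZFPM2, a GATA cofactor, 73 and 34, and CNTNAP2, of the neurexin superfamily, 72 and 17. In these 8 genes the N-C1-only sites outnumbered the shared ones, with shares between 56.2% in ZFPM2 and 77.2% in PTPRD, and over all genes the share was 66.3%.

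Of the 198 genes with 20 or more N-C1 sites, the share of N-C1-only sites ran from 44.7 to 87.5% around a median of 68.9%. It was largest in LRRC7, a postsynaptic scaffold, with 21 of 24, in the dynamin gene DNM3 with 25 of 29, in the diacylglycerol kinase gene DGKB with 30 of 35, in SEMA3A, a secreted guidance cue, with 23 of 27, and in MCTP1 with 17 of 20. It was smallest in EPHA6, an ephrin receptor, with 17 of 38, in NRG3, a neuregulin, with 13 of 28, in the heparan sulfate sulfotransferase gene HS6ST3 with 22 of 45, and in the formin gene FMN2 and the metabotropic glutamate receptor gene GRM5 with 11 of 22 and 10 of 20. A gene's sites are few, so these shares carry wide counting error.

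Genes with N-C1 sites and no FL site held few of them. The kinase gene STK32A (chr5:146614526-146767418) and UMAD1 (chr7:7680342-8007651) held 10 each, SH3D19 9, ATAD2B and SPATA5 8 each, and OPA1, needed for mitochondrial inner membrane fusion, LIMCH1, the zinc transporter gene SLC30A9, the kinesin gene KIF13A and DERA 7 each. In all, 68 genes held 5 or more N-C1 sites and no FL site. In the other direction, 64 genes held an FL site and no N-C1 site, none with over 2. NOP14, which acts in ribosome biogenesis, and EGFR, the epidermal growth factor receptor (chr7:55086710-55279321), held 2 FL-only sites each, and NEXN 1. ZBED6 and ZC3H11A overlap and share 1 such site.

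Gene families were read from lists of known members. The type II cadherins, adhesion molecules mostly of the nervous system, had 10 of 12 genes with an FL site and the same number with an N-C1 site, at 37.5 N-C1 and 15.0 FL sites per Mb. CDH12 held 46 N-C1 and 20 FL sites and CDH18 42 and 15. Over all protein-coding genes 32.3% held an N-C1 and 20.6% an FL site, and the densities were 19.9 N-C1 and 7.01 FL sites per Mb. The neurexins, neuroligins and contactins, synaptic adhesion proteins, had 13 of 18 genes with both, at 32.1 and 10.5 per Mb, led by CNTN5 with 72 N-C1 and 23 FL sites. The glutamate receptors had 17 of 26 genes with an N-C1 and 15 with an FL site, at 28.7 and 9.15 per Mb, and GRIN2A and GRIA3 had N-C1 sites alone, 2 and 3. All 17 common fragile site genes had both, at 28 and 9.79 per Mb.

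Genes of the mammary epithelium held sites at 24.9 N-C1 and 10.8 FL per Mb in the basal list and 18.2 and 3.84 in the luminal list. Of the ERBB receptors and their neuregulin ligands, ERBB4 held 66 N-C1 sites, 42 of them N-C1-only, and 24 FL sites. NRG1 held 26 and 11, NRG2 held 3 N-C1 and no FL sites, and ERBB2 and ERBB3 held none of either. Over all protein-coding genes 32.3% held an N-C1 and 20.6% an FL site. Of 18 basal mammary genes 8 (44.4%) held both kinds, among them TP63, the basal lineage regulator, with 11 N-C1 and 3 FL sites. Of 15 luminal genes 5 (33.3%) held an N-C1 and 2 (13.3%) an FL site: ESR1, the estrogen receptor, held 12 and 3, whereas PRLR, AGR2 and PGR, the prolactin receptor, a secretory pathway protein and the progesterone receptor, held 2 N-C1-only sites each. Of 16 ubiquitously expressed metabolic and cytoskeletal genes 2 held a site. In the SATB and CUT domain family, SATB1 itself held 5 N-C1 and 2 FL sites. Whether these numbers differ by more than gene length gives was not tested.

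Chromosomes differed in density and in the share of N-C1 peaks found in FL, and less in the share of FL peaks found in N-C1. N-C1 peaks per sequenced Mb ran from 5.81 on chromosome 19 and 6.68 on chromosome 22 to 29.9 on chromosome 1 and 30.1 on chromosome 13, with 3 on chromosome Y. FL peaks ran from 2.69 on chromosome 19 to 12.3 on chromosome 13, with 1.91 on Y. The share of FL peaks found in N-C1 lay between 91.3% on chromosome 20 and 96.5% on chromosome 1, with 90.9% of 44 peaks on Y. Whether the few peaks placed on Y are sites of that chromosome was not tested. The share of N-C1 peaks found in FL was 30.4% (28.6 to 32.1%) on X, 39.1% (37.3 to 40.9%) on chromosome 13, 42.3% (36.8 to 47.9%) on chromosome 19, 45.1% (38.6 to 51.7%) on chromosome 22 and 56.5% (44 to 68.4%) of 69 peaks on Y. Across the 23 chromosomes other than Y, N-C1 density had a Pearson r of 0.879 (Spearman 0.763) with A/T content and −0.752 (−0.746) with gene density. For the shared share the values were −0.707 (−0.569) with A/T content and 0.551 (0.374) with gene density. The chromosomes share 1 list and A/T content varies with gene density, so these are descriptions of 2 lists. Density also differed at nearly the same A/T content. It was 29.9 N-C1 peaks per Mb on chromosome 1 (58.3% A/T) and 17.7 on chromosome 10 (58.4% A/T). Copy number in these cells was not read, so its bearing on counts by chromosome, gene or cluster was not tested.

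**Figure D5:**
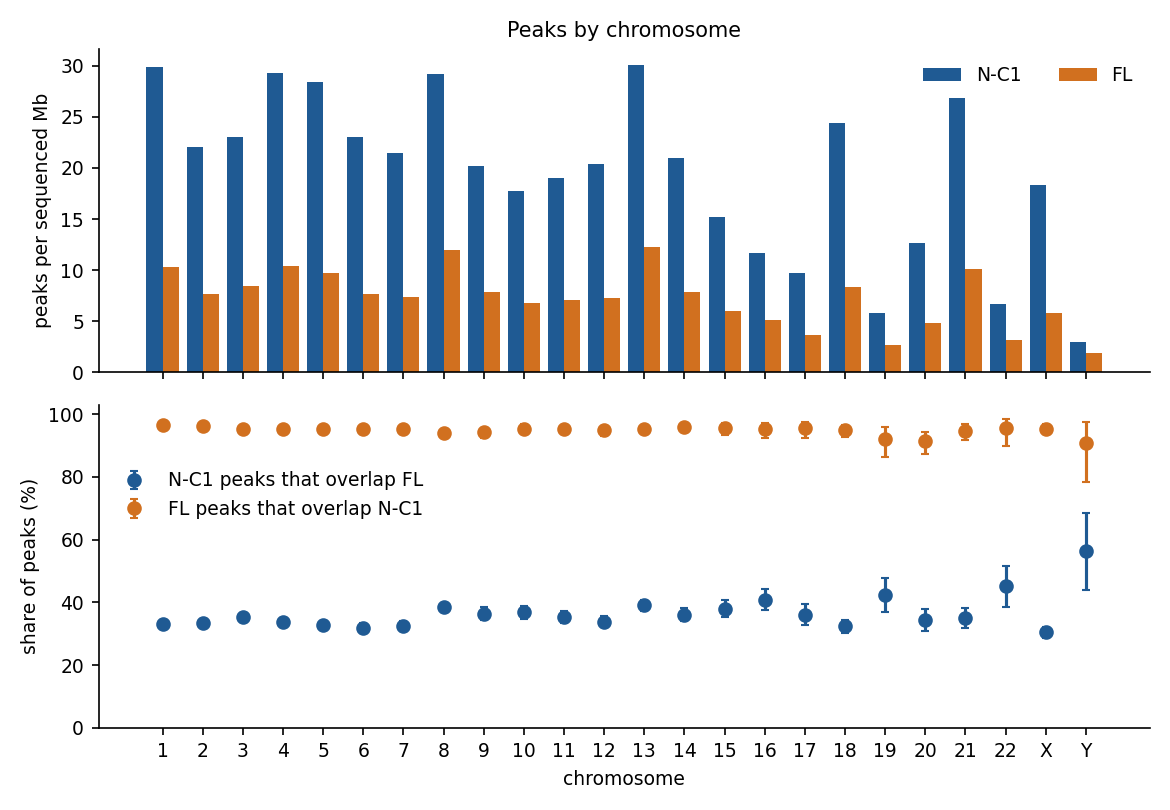
Peaks by chromosome: above, N-C1 and FL peaks per Mb of sequenced bases, below, the share of peaks (%) of each list that overlap the other, with 95% Clopper-Pearson intervals. N-C1 density is lowest on Y, 19 and 22 and highest on 1 and 13. The FL shares lie between 91.3 and 96.5% on chromosomes other than Y, with 90.9% of 44 peaks on Y.

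N-C1 sites were more often clustered than FL sites at full list length, and less often at equal length. With summits joined when 10 kb or less apart, 23.3% of N-C1 peaks (23 to 23.6%) were in clusters of 3 or more, 3803 clusters in all, against 5.75% of FL peaks (5.45 to 6.06%) in 377 clusters. Cut to the FL number, the N-C1 list had 4.10% (3.85 to 4.37%) in 295 clusters. Of the 3803 clusters 900 (23.7%) held no shared peak. The share of peaks also in FL was alike at every cluster size, 35.4% for single peaks and 33.1% in clusters of 5 to 9. N-C1-only summits lay a median of 30.7 kb (quartiles 11.3 and 70.5) from the nearest FL summit, and 22.8% of them (22.4 to 23.2%) were within 10 kb. FL-only summits lay a median of 10.5 kb from the nearest N-C1 summit, and 7.26% were within 1 kb.

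The largest clusters held few heptamers, and many stood near assembly gaps. The largest had 39 N-C1 peaks, 7 of them shared, on chr21:10373774-10498716, 0.689 Mb from a gap of at least 1 Mb, with a mean of 1.05 heptamers. The others had 25 peaks, 13 shared, on chr1:142781174-142841315 and 22 peaks, 9 shared, on chr9:68414996-68468315, 0.246 and 2.95 Mb from such a gap. Of the 74 clusters of 10 or more, 23 lay within 2 Mb of one. In these 74 clusters 20.9% of peaks were accessible, and 14.9% of the 617 peaks farther than 2 Mb away, against 4.24% of single peaks. The cluster with most N-C1 peaks and no FL peak had 11 peaks in ESRRG, an orphan nuclear receptor (chr1:216666389-216694519). Its N-C1 folds ran from 3.62 to 6.74.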

How the data were processed

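Satb1 ChIP-seq and ATAC-seq peak lists of MCF10A cells were used as deposited. The submitters' notes name cutadapt, Bowtie2 and MACS2, without versions, on hg19. The authors' lists hold fold enrichment at the summit (a ratio to local background), −log10 p and −log10 q values, and a score made from them before deposit. The methods name input DNA as control and a false discovery rate of 0.01, but the deposited lists reach down to a −log10 q of 1.32, so they hold some peaks that do not meet it. How duplicate libraries were combined is not given in the sources used here. The depth of each list is unknown, so intervals cover counting error in numbers of peaks.

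Peaks were intersected with pandas 2.3.3 and numpy 2.4.6 under Python 3.11.15, intervals came from scipy 1.17.1 and sequence was read with pysam 0.24.0, with the overlap code tested on simulated intervals against bedtools 2.31.1. Figures used matplotlib 3.10.9. Genes were protein-coding GENCODE v44lift37 genes without readthroughs, and a summit in the gene body counted as a site. Histone genes were matched by current symbols, and CD24 was not matched. A/T content was read over 200 bp and heptamers over 400 bp at the middle of each peak, flanks from 1000 to 2000 bp away. Percentiles of fold were taken over the 1-to-1 sites of each list.

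Named sites and genes followed a fixed rule: the 3 tallest 1-to-1 sites, the 5 tallest unshared peaks of each list, the 5 sites that rose and the 5 that fell most in percentile, the 3 largest N-C1 clusters and the 3 largest without FL, and genes by number or share of sites. Some of the sites and genes this rule picks are not reported here. Members and gene lists were chosen with earlier results of these data known. A/T classes, runs, the related word and distance to gaps were chosen after the data were seen. The share of soft-masked bases was planned and not run, because the reference sequence carried no masking.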

Additional observations from a re-analysis of the deposited data

How the results depend on the processing

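In all, 15 values were recomputed under 43 alternatives, 13 of them chosen after the data were seen. Of the 43, 34 moved beyond the main value's counting interval (for counts of genes, by over 1.5 times) and 9 did not. Changes of direction were not counted. Among the 9, genes with N-C1 and no FL site numbered 2582 with 5 kb upstream added and 1872 at fold 5 or more, against 2349. With a reciprocal overlap of 50%, 91.0% of FL and 33.1% of N-C1 peaks were shared, 28.3% of N-C1-only peaks were in another full-length list, their median width was 301 bp, 37.9% of FL peaks of 85% A/T or more were in N-C1 and 31.3% of FL-only peaks had 80% A/T or more. At a fold of 5 or more in both lists these were 93.4% of FL and 43.1% of N-C1 peaks shared, a width of 323 bp, 42.5% of N-C1-only peaks in genes of median length 116 kb, 20% within 10 kb of FL and 94.6% with a heptamer. At −log10 q of 2 or more the shares were 95.1% and 34.8%. Cutting N-C1 to the FL number gave 77.1% shared and 427 genes with N-C1 and no FL site. N-C1-only peaks were in the ICRF-193 list alone in 27.3% and the CP list alone in 10.9%, in genes of every biotype in 59.9%, and genes without a shared peak had a median of 59.9 kb. Within 5 kb of FL lay 12.6% and within 20 kb 38.0%. Accessible shares were 3.61% in native cells, 2.42% by summit and 3.06% at an ATAC −log10 q of 5 or more. Heptamers lay in 82.2% over 150 bp, and those starting with CTAATA on either strand in 58.6%. Changes of at least 2 quartiles made up 6.62%. FL peaks of 85% A/T or more were in N-C1 in 64.7% over 100 bp, 32.6% over 400 bp and 66.7% at fold 10 or more; FL-only peaks had 80% or more in 72.5%, 20.5% and 88.7%. Farther than 2 Mb from gaps, 22.6% of N-C1 peaks were in clusters of 3. The causes were not tested. No paired analysis was possible because each condition had 1 list. Numbers of N-C1-only peaks depend on list length and unknown depth.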

Other observations

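Further gene families were read in the same way, beside 32.3% of all protein-coding genes with an N-C1 site, 20.6% with an FL site, and 19.9 and 7.01 sites per Mb. Of 412 olfactory receptor genes, 54 held an N-C1 site and 23 an FL site, at 25.6 and 9.81 sites per Mb. Of 246 zinc finger genes of chromosome 19, 48 and 22 did, at 7.91 and 2.94 per Mb. The clustered protocadherins, whose transcripts share long stretches of the locus, had 36 and 33 of 53 genes with a site, so 1 site can count in several genes. Sites were few in number in the 82 ribosomal protein genes (4 N-C1 and 1 FL) and the 55 keratin genes (4 and 1). The same held for the 67 replication-dependent histone genes (5 and 2) and the 39 HOX genes (4 and 3). Per Mb there were 4.14 and 1.04 sites in ribosomal protein genes and 7.47 and 1.87 in keratin genes. Histone genes, with a median length of 0.508 kb, had 22.4 N-C1 and 8.94 FL sites per Mb, and HOX genes 10.0 and 7.51. Of 19 genes of the epithelial to mesenchymal transition, 9 held an N-C1 and 7 an FL site, and of the 10 casein cluster genes 2 and 2.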
